A study of Homo sapiens with 8 samples.

Results

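The MAGE (melanoma antigen) family was described as the 33 genes of the deposited table, of 60664 in all, whose identifier is an Ensembl gene and whose symbol is MAGE with a letter from A to H, a number and at most 1 further letter. The members comprised 25 type I genes (12 MAGEA, 10 MAGEB and 3 MAGEC) and 8 type II genes (4 MAGED, 2 MAGEE, MAGEF1 and MAGEH1). MAGEF1 lies on chromosome 3 and the other 32 on the X chromosome. The rule used names and no measured value. RNA was sequenced from THP-1 cells, a line of human monocytic leukemia, and from DAC-resistant THP-1. DAC, or decitabine, is a nucleoside drug that traps DNA methyltransferases, so that methylation is not copied onto newly made DNA and is lost as cells divide. The 4 groups were parental cells with DMSO, parental cells with 1 µM DAC, DAC-resistant cells with DMSO and DAC-resistant cells with 1 µM DAC, each for 6 days and each with 2 libraries. The resistant cells were made, according to the study's methods, by repeated pulses of DAC over months and are the surviving population, so both resistant groups share this earlier exposure, which the parental groups lack. All groups come from 1 line. The labels call the libraries of a group biological replicates without saying how their cultures were kept apart, and p-values measure only the spread between these 2 samples a group.

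MAGE proteins share the MAGE homology domain, by which many of them bind a RING ubiquitin ligase and steer it to substrates. Type I genes form clusters on the X chromosome and are normally read in the germ line. In somatic tissue their promoters carry DNA methylation and the genes are silent, and in many tumours they are switched on, which makes their peptides targets of T cell therapy and vaccines. Type II genes are read in most tissues, several of them strongly in the nervous system.

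Values are FPKM, fragments per kilobase of gene length, scaled to the library's depth, so levels of different genes can be set side by side. Between 28663726 and 33362008 reads on genes stood behind each library. Reads per gene were recovered from the steps of the values, and 3 reads or fewer in a group is not read as absence. Of 13 monocyte and myeloid markers, all 13 had reads in every group, and their summed level ran from 491.0 to 550.0 FPKM in the parental and from 619.0 to 658.0 in the resistant libraries. Most of the list went against that sum. Between the DMSO groups, LYZ, CD33 and ITGAM were called lowered in the resistant line and CTSG alone, from 105.0 to 277.0 FPKM on average, called raised. Of all genes, 4.28% were called lowered and 4.45% raised there. At an unadjusted p under 0.05, 8 of the 13 were lower and 3 higher in the resistant line. The percentages of all genes given here are those of calls and not of this looser threshold, so such counts show direction only. DAC in parental cells, where the type I genes came on, also moved this list, with 9 of 13 higher and 3 lower at the same threshold. MPO, LYZ (on average 12 to 47.8 FPKM) and CD14 (1.52 to 19.9 FPKM) were called raised and CTSG lowered, where 6.66% of all genes were raised and 2.64% lowered. Of the defining T cell markers, CD3D, CD3G and CD2 had 0 reads in every group but DAC-treated parental cells and CD3E had 4 and 6 reads in resistant cells with DMSO as well as 11 and 9 in DAC-treated parental cells. In the latter all 8 T and NK markers had reads and their summed level was 17.3 to 18.0 FPKM, 16.7 of it on average from NKG7. The summed level of 12 B and plasma cell markers ran from 65.3 to 109.0 FPKM over the 8 libraries, most of it XBP1. Of the 8 tested, DAC in parental cells raised PRDM1 and SDC1, beside the 6.66% raised and 2.64% lowered of all genes. With DAC in parental cells 6 of the 8 were higher and 2 lower at an unadjusted p below 0.05. The summed level of 8 erythroid and megakaryocyte markers ran from 0 to 3.17 FPKM. That of 5 epithelial markers, mostly KRT8, ran from 1.48 to 1.98 in DAC-treated parental cells and from 0.0645 to 0.195 elsewhere. The part of other cells in the results below was not tested, and in bulk RNA fewer expressing cells and less RNA per cell cannot be told apart.

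Since DAC acts on CpG, promoter windows of 5 members are shown, with each CpG in capitals. RefSeq (GRCh38.p14) gave 300-base windows around the annotated starts of 29 of the 33 members. MAGEA1, MAGEA10, MAGEB17 and MAGEH1 had none. The windows are those of MAGEB2, the type I gene with the highest level in every library (chrX:30215313-30215612, plus strand, 21 CpG), of its neighbour MAGEB1, which had 0 reads in parental cells until DAC was given (chrX:30246896-30247195, plus strand, 18 CpG, 1 of its 2 windows, of which the other, chrX:30243481-30243780, holds 1 CpG), of MAGEC2 (chrX:142205241-142205540, minus strand, 10 CpG) and MAGEA3 (chrX:152698544-152698843, plus strand, 19 CpG), which also went from 0 reads to expression, and of the type II gene MAGEF1, which was lower with DAC in parental cells (chr3:184712015-184712314, minus strand, 21 CpG).
MAGEB2: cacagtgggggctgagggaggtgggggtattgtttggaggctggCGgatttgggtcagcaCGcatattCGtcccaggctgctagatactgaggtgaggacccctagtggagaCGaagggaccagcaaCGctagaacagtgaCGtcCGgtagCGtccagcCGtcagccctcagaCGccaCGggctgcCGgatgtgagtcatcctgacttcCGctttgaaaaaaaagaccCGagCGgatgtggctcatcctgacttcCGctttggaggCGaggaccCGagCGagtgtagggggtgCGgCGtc
MAGEB1: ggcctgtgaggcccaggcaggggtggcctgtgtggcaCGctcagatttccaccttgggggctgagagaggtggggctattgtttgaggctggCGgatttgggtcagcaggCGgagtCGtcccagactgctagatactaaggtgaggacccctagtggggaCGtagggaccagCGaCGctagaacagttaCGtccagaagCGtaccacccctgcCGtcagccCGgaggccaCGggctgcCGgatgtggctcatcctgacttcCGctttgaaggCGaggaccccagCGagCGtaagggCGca
MAGEC2: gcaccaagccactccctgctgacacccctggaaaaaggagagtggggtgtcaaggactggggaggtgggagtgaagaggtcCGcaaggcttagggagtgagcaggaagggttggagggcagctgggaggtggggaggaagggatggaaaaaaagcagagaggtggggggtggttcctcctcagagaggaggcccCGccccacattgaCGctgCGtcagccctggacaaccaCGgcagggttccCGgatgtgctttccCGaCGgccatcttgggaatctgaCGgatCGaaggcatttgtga
MAGEA3: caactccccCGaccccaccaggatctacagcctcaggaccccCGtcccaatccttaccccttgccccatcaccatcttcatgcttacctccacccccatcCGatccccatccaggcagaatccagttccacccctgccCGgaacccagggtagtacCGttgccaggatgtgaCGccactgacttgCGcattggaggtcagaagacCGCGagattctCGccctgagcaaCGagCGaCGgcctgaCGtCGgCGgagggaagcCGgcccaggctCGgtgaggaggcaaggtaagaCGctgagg
MAGEF1: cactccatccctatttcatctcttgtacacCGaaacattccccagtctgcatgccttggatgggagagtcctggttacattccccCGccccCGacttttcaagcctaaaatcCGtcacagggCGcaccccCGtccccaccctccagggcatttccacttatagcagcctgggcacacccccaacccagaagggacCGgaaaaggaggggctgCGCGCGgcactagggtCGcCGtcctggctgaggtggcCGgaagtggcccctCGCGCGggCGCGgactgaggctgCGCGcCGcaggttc

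MAGEB2 and MAGEB1 had 213 identical bases of 241 aligned (88.4%), against a median of 74.4% over 297 pairs of member windows with a long enough alignment, of which 22 were closer than this one. A 20-base stretch, tcatcctgacttcCGctttg, stood at 2 places in the MAGEB2 window and at 1 in that of MAGEB1, and in no other window of the members. It holds the Ets letters CGGAAG on the opposite strand. These letters, searched on both strands after the stretch was seen, stood in 9 of 30 type I windows, 3 of 10 type II windows and 19.5% of 35116 windows of all genes. The Ets letters CCGGAA, which can overlap CGGAAG, were in 4 of 30 type I windows, 3 of 10 type II windows and 17.2% of all windows, and the GC box GGGCGG, also on both strands, in 13 of 30, 8 of 10 and 45.0%. These are counts of windows and not of genes. Several windows of MAGEA4 and the identical stretches of MAGED4 and MAGED4B each count. The 9 windows with CGGAAG include those of MAGEB2 and MAGEB1. The median CpG number was 12.5 in type I windows (1 to 21), 16.0 in type II windows (10 to 26) and 14.0 in all windows. The windows of MAGEA3 and MAGEA6 were identical over 300 bases, as were those of MAGEA9 and MAGEA9B.

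In parental cells DAC switched on most of the type I family. With DMSO, 19 of the 25 type I genes had 0 reads in both libraries and only MAGEB2 and MAGEA4 had 10 reads or more in each. With DAC, 18 of 25 reached 10 reads in each library and only MAGEB5 stayed at 0. By limma on log2(FPKM + 1), 6 of the 25 type I genes were raised and 0 lowered, where a call asks for an unadjusted p up to 0.01 together with a change of 1 or more on the log2 scale. Of all 14899 genes tested, 6.66% were raised and 2.64% lowered. The 6 were MAGEA4, MAGEC2, MAGEC1, MAGEA1, MAGEB1 and MAGEA9B, and 7 type I genes were fitted at all, since the others stayed below 1 FPKM in all but at most 1 library. A fit of the recovered reads (voom, genes of at least 10 reads in total) raised 17 of the 25, where 12.4% of all genes fitted were raised. MAGEA2, MAGEA2B, MAGEA9, MAGEB4, MAGEB5 and MAGEB18 had fewer reads in total and were not fitted by voom. Genes that pass either filter through the DAC libraries alone had to differ, so these counts and the p-values of such genes are a description. Counted by reads alone, a gene came on if it had at most 3 reads in the DMSO group and at least 10 in each DAC library. Of the 21 type I genes at 3 reads or fewer, 14 came on (66.7%). Both DAC libraries lay above both DMSO libraries for 20 of the 25, as they did for 33.6% of all genes above 0. The read rule gave 5.97% of 14537 genes of the table, 11.9% of 572 other X-linked genes and 17.7% of 3013 other protein-coding genes. The median difference over all 25 genes was 0.48 on the log2(FPKM + 1) scale, against 0.02 over 39592 genes above 0. It was 1.20 with TPM scaling and 2.29 with a pseudocount of 0.1. By reads, with genes at 0 in the DMSO group at their lower bound and genes at 3 reads or fewer in both groups at no change, the median was 16.6-fold for type I and 1.0-fold for type II.

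**Figure D1:**
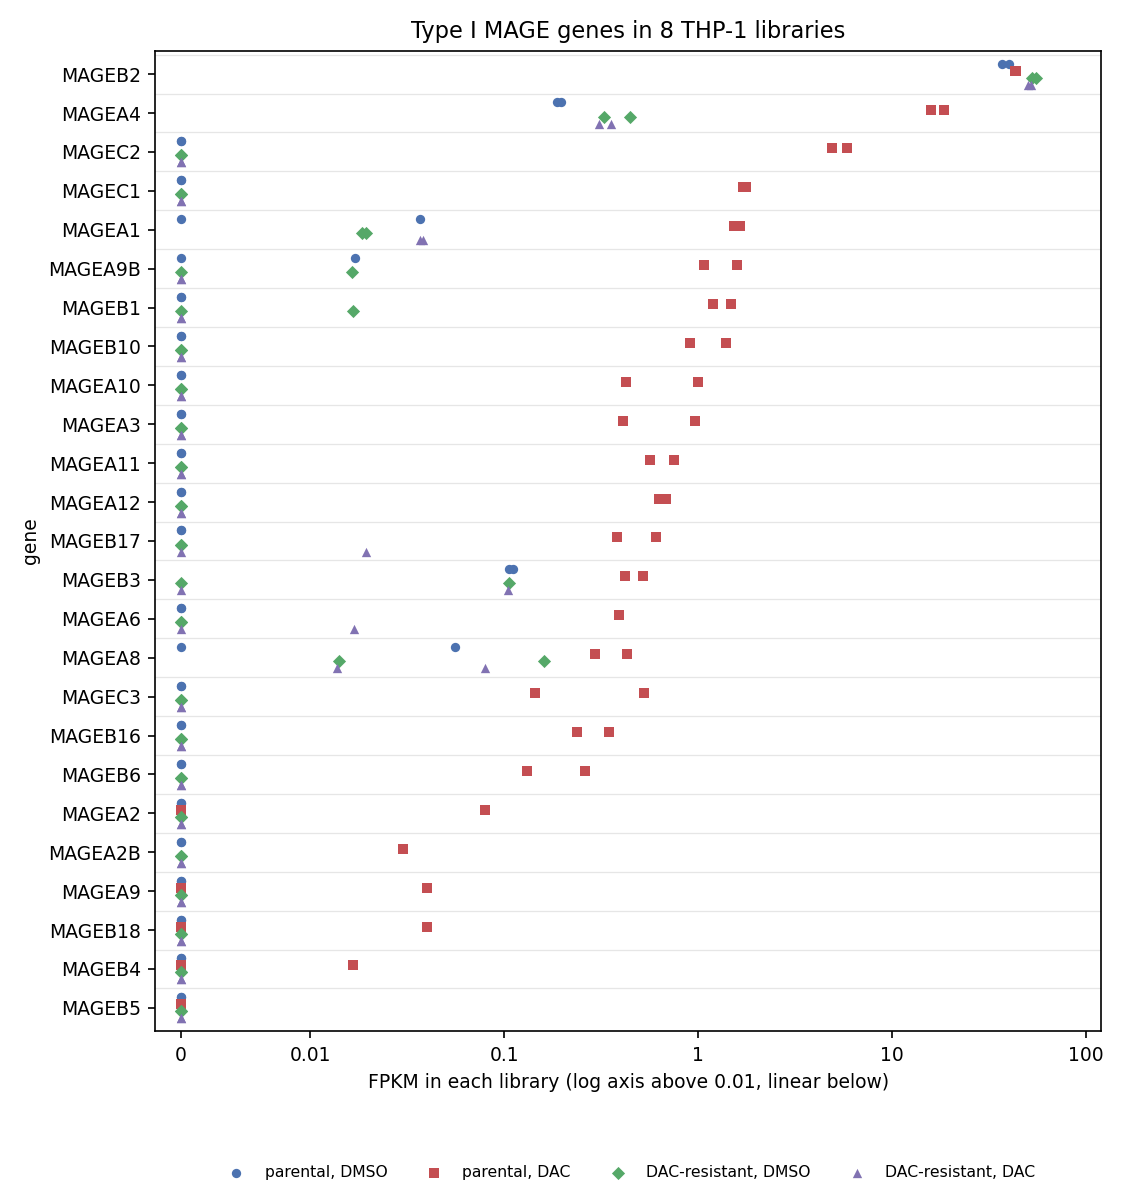
FPKM of the 25 type I genes in each of the 8 libraries, ordered by the mean in parental cells with DAC (horizontal axis, log scale above 0.01 and linear below; points, libraries; colours and shapes, groups). For 20 genes both parental DAC libraries lie above both parental DMSO libraries, while MAGEB2 is between 37.2 and 55.2 FPKM throughout.

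The MAGEC genes, known from melanoma and myeloma, all came on. MAGEC2 (chrX:142202342-142205290), which as protein binds the ligase TRIM28, had 0 reads in both parental DMSO libraries. The floor used there, 3 reads over the group, would be 0.0243 FPKM. With DAC the gene had 271 and 323 reads. Its level with DAC was 4.94 and 5.89 FPKM, 5.42 ± 0.673 (SD, n = 2), at least 223-fold higher than that floor. The same floor of 3 reads over the control group stands behind each lower bound. It allows for counting error only and is not a hard limit. The log2 fold change on the FPKM + 1 scale, which understates low genes, was 2.68 (standard error 0.11, limma, Benjamini-Hochberg adjusted p = 4.4e-06). MAGEC1 (chrX:141903894-141909374) went from 0 reads to 207 and 199 (1.77 and 1.70 FPKM), at least 153-fold higher. MAGEC3 went from 0 to 11 and 40 reads, and these 2 libraries differed 3.64-fold, the widest spread among the type I genes that reached 10 reads in each.

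Among the MAGEA genes, MAGEA4 carried most of the RNA. MAGEA4 (chrX:151912495-151925171), the target of an approved engineered T cell therapy, had 0.187 and 0.196 FPKM with DMSO and 15.9 and 18.5 FPKM with DAC. Its 20 and 20 reads became 1469 and 1715, an 89.8-fold rise (95% exact binomial interval 65.8 to 126.0, counting error only). The log2 fold change was 3.93 (standard error 0.099, adjusted p = 5.2e-07), the largest on this scale of the 10 members that were fitted. By reads alone the bounds of MAGEC2 and MAGEC1 and the ratio of MAGEA9B were above its ratio. Without MAGEB2, the type I genes summed to 0.33 and 0.379 FPKM with DMSO and to 32.8 and 37.4 with DAC, of which MAGEA4 alone held 15.9 and 18.5.

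MAGEA1, the first human tumour antigen gene to be cloned through T cells, had 2 and 0 reads with DMSO and 72 and 77 with DAC (84.1-fold, interval 22.9 to 701.0). MAGEA9B went from 0 and 1 to 84 and 57 reads (159.0-fold, with the wide interval of 28.1 to 6330.0 that 1 control read gives) and its near copy MAGEA9 from 0 to 2 and 0, but 91.7% of their 75-base words are shared, so the split between them is uncertain. The other 9 MAGEA genes stayed at or below 1.0 FPKM with DAC. MAGEA11, known as a coregulator of the androgen receptor, went from 0 reads to 72 and 54, MAGEA10 from 0 to 34 and 80, and MAGEA12 from 0 to 34 and 37. MAGEA3 and MAGEA6, whose proteins also work with TRIM28, had 20 and 47 and 20 and 20 reads with DAC and 0 with DMSO. Their words are shared to 44.3%, and MAGEA3 with its identical promoter window reached at least 25.2-fold and MAGEA6 at least 15.0-fold over the floor. MAGEA2 and MAGEA2B, which share all their words, had only 5 and 0 and 2 and 2 reads with DAC. The values of such copies are uncertain. MAGEA8 had 0 and 4 reads with DMSO and 28 and 19 with DAC.

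The MAGEB genes differed widely from one another. MAGEB1 (chrX:30243715-30252040) went from 0 reads to 65 and 81 (1.19 and 1.48 FPKM, at least 54.9-fold higher) and MAGEB10 from 0 to 75 and 49 (at least 46.6-fold). MAGEB17 had 17 and 27, MAGEB16 13 and 19 and MAGEB6 7 and 14 reads with DAC, each from 0. MAGEB3 had 7 and 7 reads with DMSO and 24 and 30 with DAC (4.35-fold, interval 2.38 to 8.48), and its voom p of 0.04 did not reach the threshold. MAGEB18 (2 and 0 reads), MAGEB4 (1 and 0) and MAGEB5 (none) stayed at or under 3 reads. Over the 4 MAGEB genes with a window and fewer than 10 reads in a DAC library (MAGEB4, MAGEB5, MAGEB6 and MAGEB18) the median CpG number was 5.5 (2 to 11), and over 14 type I genes that reached 10 reads it was 14.5 (3 to 21), with the near-identical pairs MAGEA2 and MAGEA2B and MAGEA9 and MAGEA9B left out. With these copies included the medians were 10.0 over 7 genes (2 to 17) and 14.0 over 15 genes (3 to 21), so most of the gap rests on leaving them out. The ranges overlap, as MAGEB3 and MAGEC3 reached 10 reads in each DAC library with 3 and 5 CpG.

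**Figure D2:**
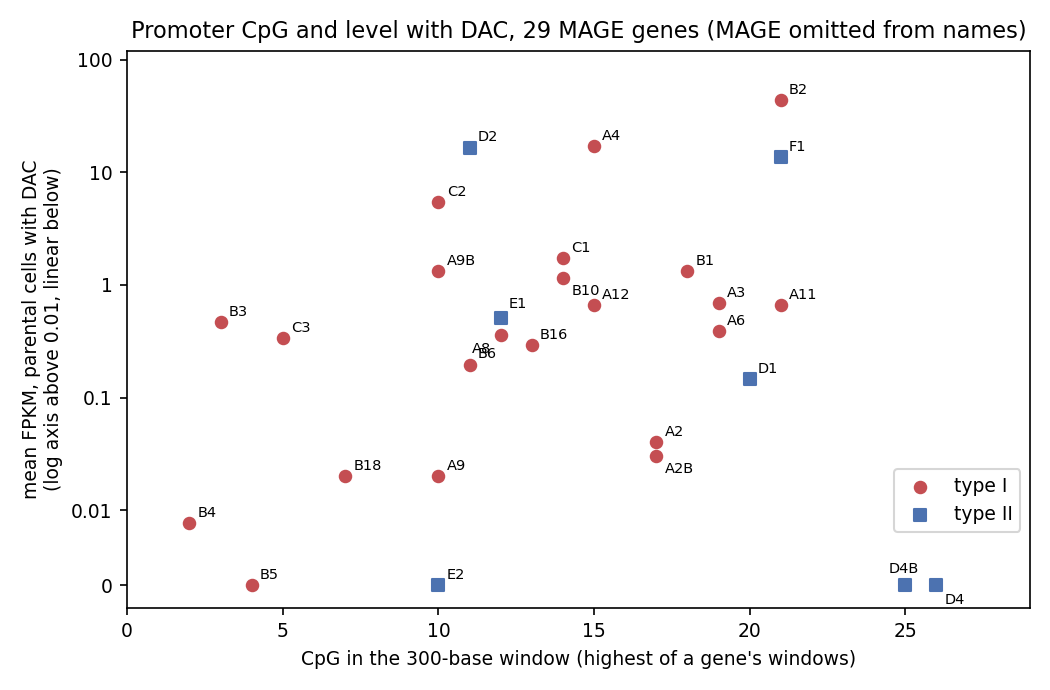
Highest CpG number among a gene's 300-base windows (horizontal axis) against mean FPKM in parental cells with DAC (vertical axis, log scale above 0.01 and linear below) for the 29 members with a window (circles, type I; squares, type II). MAGEB4, MAGEB5 and MAGEB18 have few CpG and little RNA, while MAGED4 and MAGED4B have 26 and 25 CpG and 0 reads, so no single line describes the points.

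MAGEB2 was the exception among the type I genes. This gene (chrX:30215563-30220089), whose protein is known to act in stress granules and in the germ cells' response to stress, had 37.2 and 40.4 FPKM in DMSO-treated parental cells, 44 and 43.2 with DAC, 52.7 and 55.2 in resistant cells with DMSO and 52.0 and 50.2 with DAC. It held 99.1% of the summed type I FPKM in each parental DMSO library and 57.3% and 53.6% with DAC. Its level was above that of every type II gene in every library. The DAC difference in parental cells was 0.17 on the log2 scale (standard error 0.045, adjusted p = 0.018) and under quantile, upper-quartile or TPM scaling between 0.03 and 0.14. Without replicate 1 of the parental DMSO group it was 0.11 (adjusted p = 0.084), and without replicate 1 or replicate 2 of the parental DAC group 0.15 and 0.18 (adjusted p = 0.089 and 0.059). In resistant cells with DMSO it was 1.39-fold higher than in parental cells with DMSO (interval 1.33 to 1.45, log2 difference 0.47, adjusted p = 0.00018), short of the fold that a call needs. MAGEB3, MAGEB4 and MAGEB1, its neighbours, had at most 7 reads in any DMSO library.

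**Figure D3:**
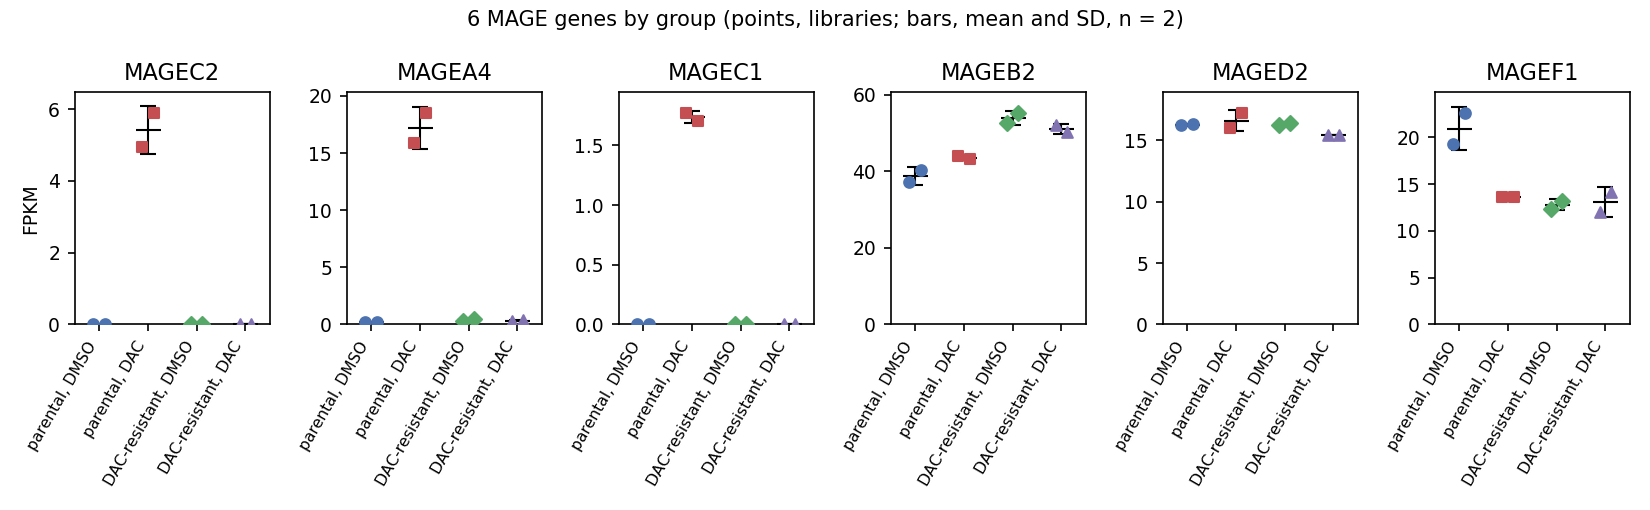
FPKM of MAGEC2, MAGEA4, MAGEC1, MAGEB2, MAGED2 and MAGEF1 in each group (vertical axis, each gene on its own scale from 0; points, libraries; bars, mean and SD, n = 2). MAGEC2, MAGEA4 and MAGEC1 are high only in parental cells with DAC, MAGED2 lies between 15.4 and 17.2 FPKM, and MAGEF1 is highest in parental cells with DMSO (19.3 and 22.6 FPKM).

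In resistant cells the same dose of DAC called no type I gene. By limma 0 of the 25 were raised and 0 lowered, with 0 at an unadjusted p under 0.05 and 0 called by voom. Type I genes left out by the 1 FPKM filter could not be called by limma. The fitted ones other than MAGEB2 were at or below 0.444 FPKM in resistant cells, too low to be called lowered on this scale. Of all genes 0.114% were raised and 0.121% lowered by limma and 0.556% called by voom. In resistant cells 18 of 25 had 0 reads in both libraries, with DMSO as with DAC. None of the 21 genes at 3 reads or fewer came on, where 0.141% of 15658 genes did. Both DAC libraries lay above both DMSO libraries for 1 of 25 (MAGEA1, with 2 and 2 against 1 and 1 reads), as for 16.9% of all genes above 0, and below them for 1 of 25 (MAGEB2, at 0.948 times the DMSO level, interval 0.912 to 0.985), as for 15.4%. MAGEC2 had 0 reads in all 4 resistant libraries, as had MAGEC1, MAGEC3, MAGEA3, MAGEA10, MAGEA11, MAGEA12 and MAGEB10. MAGEA4 had 0.329 and 0.444 FPKM with DMSO and 0.307 and 0.358 with DAC, and these values overlap. With DAC the resistant cells held 1.94% of the MAGEA4 level of parental cells with DAC and 2.36% of that of MAGEA1, where 4 reads remained.

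An interaction term set the DAC effect of resistant cells against that of parental cells. It was lowered for 6 of the 25 type I genes and raised for 0, where 7.16% of all genes were lowered and 3.46% raised. These 6 passed the filter through the parental DAC libraries alone, so the sign was fixed by the filter and the count is a description. It was -3.98 for MAGEA4 (standard error 0.14, adjusted p = 4e-06), -2.68 for MAGEC2 (adjusted p = 3.4e-05), -1.45 for MAGEC1, -1.32 for MAGEA1, -1.23 for MAGEB1 and -1.21 for MAGEA9B. By voom on genes of at least 10 reads it was lowered for 13 of 25, a total that includes genes too low to be fitted, against 8.28% of all genes fitted.

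**Figure D4:**
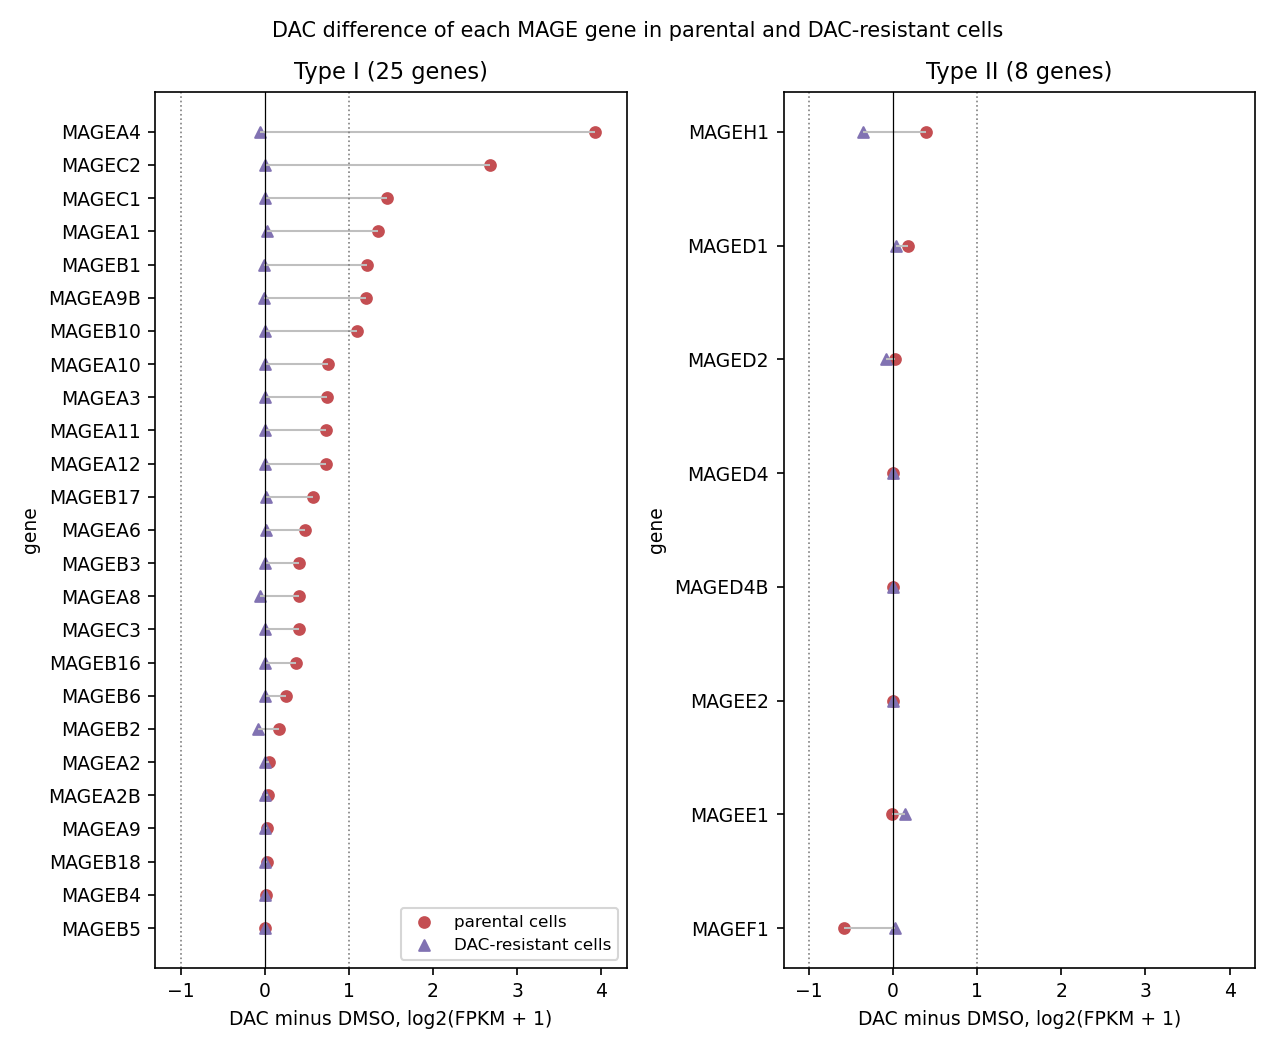
DAC minus DMSO on the log2(FPKM + 1) scale for each type I gene (left) and type II gene (right), in parental cells (circles) and DAC-resistant cells (triangles); dotted lines mark a difference of 1 in size. Type I genes reach 3.93 in parental cells and lie between -0.08 and 0.03 in resistant cells, while type II genes lie between -0.58 and 0.39.

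With DMSO, MAGEB2 and MAGEA4 were the type I genes with 10 reads or more in each library, in resistant as in parental cells. Resistant against parental cells, both with DMSO, gave 0 of 25 type I genes raised and 0 lowered by limma, with 1 higher (MAGEB2) at an unadjusted p under 0.05 and 0 called by voom. Type I genes left out by the 1 FPKM filter could not be called by limma. The fitted ones other than MAGEB2 were at or below 0.444 FPKM in these libraries, too low to be called lowered. Of all genes 4.45% were raised and 4.28% lowered by limma and 13.7% called by voom. None of the 21 genes at 3 reads or fewer came on, against 1.88% of 14537 genes. MAGEA4 had 35 and 45 reads in resistant against 20 and 20 in parental cells, a 2.01-fold ratio (interval 1.36 to 3.02). Both resistant values lay above both parental ones, as for 22.6% of all genes above 0, and the log2 difference of 0.22 had an adjusted p of 0.1, and by voom it was 0.97 with an adjusted p of 0.2. That level was 2.25% of the level in parental cells with DAC. MAGEA8 had 12 and 1 reads with DMSO in resistant cells, so its 3.27-fold ratio rests on 1 library. This comparison and the DAC comparison of parental cells share the parental DMSO libraries.

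Most of the type II family was either on or at 0 reads, whatever the treatment. In each of the 4 groups 4 of the 8 (MAGED2, MAGEF1, MAGEH1 and MAGEE1) had 10 reads or more in both libraries. MAGED4, MAGED4B and MAGEE2 had 0 reads in all 8 libraries, where 3 reads over a group would be at most 0.0241 FPKM, and MAGED1, the last of the 8, had between 0 and 42. MAGED4 shares 99.2% of its words with its near copy MAGED4B, so the values of this pair are uncertain. The filter left 3 of the 8 (MAGED2, MAGEF1 and MAGEH1) for limma, and the other 5 could not be called by it. Voom could not call MAGED4, MAGED4B and MAGEE2 either. DAC called 0 in parental cells by limma (at an unadjusted p under 0.05, 1 was higher and 1 lower) and 0 by voom, against 9.31% of all genes by limma and 15.6% by voom. In resistant cells it called 0 (0 higher and 1 lower at an unadjusted p under 0.05, 0 by voom), against 0.235%. Between resistant and parental cells with DMSO it was 0 again (0 higher and 1 lower, 0 by voom), against 8.73%. The interaction was called for 0 (1 higher and 1 lower, 0 by voom), against 10.6% by limma and 11.7% by voom. The type II genes summed to between 32.7 and 44.6 FPKM in every library.

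**Figure D5:**
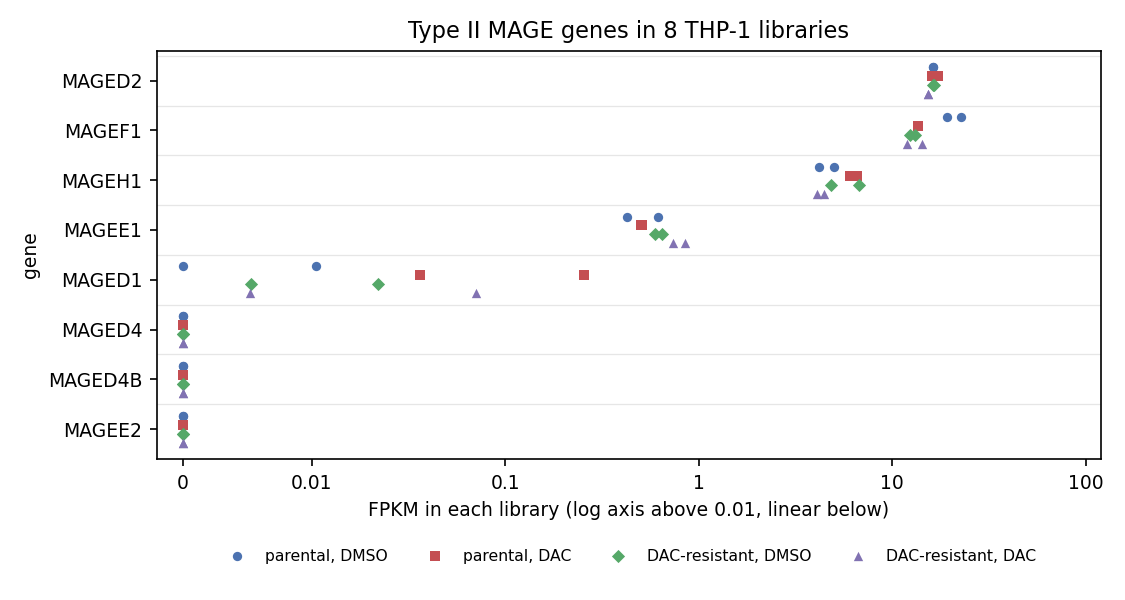
FPKM of the 8 type II genes in each of the 8 libraries (horizontal axis, log scale above 0.01 and linear below; points, libraries; colours and shapes, groups). The points of a gene lie close together except for MAGED1, whose values range from 0 to 0.254 FPKM.

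MAGED2 differed little between the groups. The gene (chrX:54807599-54816015), mutated in an antenatal form of Bartter syndrome, had 16.2 and 16.3 FPKM in DMSO-treated parental cells, 16.0 and 17.2 with DAC, 16.2 and 16.4 in resistant cells with DMSO and 15.4 in both with DAC. The 1.02-fold ratio of DAC to DMSO in parental cells had an interval of 0.967 to 1.07. In resistant cells both DAC libraries lay below both DMSO libraries, at 0.945 times their level (0.897 to 0.995, log2 difference -0.08, adjusted p = 0.28 by limma).

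Of the 3 type II genes that were fitted, MAGEF1 stood farthest from its parental DMSO level in the other groups. Its protein joins the ligase NSMCE1 to a target of the iron-sulfur cluster pathway. The gene (chr3:184710364-184712064, the only autosomal member) had 19.3 and 22.6 FPKM in DMSO-treated parental cells, 13.6 in both with DAC, 12.4 and 13.2 in resistant cells with DMSO and 12 and 14.2 with DAC. The parental DMSO libraries lay above the other 6. With DAC it was at 0.652 times the DMSO level in parental cells (interval 0.608 to 0.699, log2 difference -0.58, adjusted p = 0.0019), and resistant cells with DMSO had 0.613 times the parental level (log2 difference -0.66, adjusted p = 0.0011). Neither reached the fold of a call, and across 3 scalings the first lay between -0.71 and -0.63. The interaction was 0.61 (adjusted p = 0.0094). Its partner NSMCE1 had 8.19 and 8.13 FPKM in DMSO-treated parental cells, 3.91 and 4.20 with DAC, 4.09 and 3.73 in resistant cells with DMSO and 5.31 and 5.63 with DAC. For NSMCE1 the differences of -0.86 and -0.90 were not called, and its interaction of 1.26 was.

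MAGEH1, MAGEE1 and MAGED1 were lower in RNA. MAGEH1, a binder of the neurotrophin receptor p75, had 4.18 and 4.99 FPKM in DMSO-treated parental cells and 6.06 and 6.60 with DAC, 4.86 and 6.77 in resistant cells with DMSO and 4.42 and 4.10 with DAC. Its differences of 0.39 and -0.36 had adjusted p-values of 0.048 and 0.16, and that between them, -0.75, 0.019. The resistant difference was -0.56 without replicate 1 of the resistant DMSO group and -0.16 without its replicate 2 (adjusted p = 0.061 and 0.47). MAGEE1, a protein of the dystrobrevin complex, was between 0.425 and 0.845 FPKM. In resistant cells its 2 DAC libraries lay above both DMSO libraries, at 1.28 times their level (interval 1.02 to 1.6). MAGED1, another binder of p75, had 2 and 0 reads with DMSO and 6 and 42 with DAC in parental cells, a 27.1-fold ratio (interval 7.1 to 230.0) that rests mostly on 1 library, and its voom p was 0.028 (adjusted p = 0.066).

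Other genes of the MAGE pathway were read from lists written by hand. Of 4 genes with a MAGE homology domain outside the name rule, NDN (necdin), an imprinted gene, had 0 reads in both parental DMSO libraries. With DAC it had 196 and 222 (3.74 and 4.24 FPKM, log2 fold change 2.32, limma adjusted p = 6.6e-06). In all 4 resistant libraries it had 0, a pattern like that of MAGEC2. NDN passed the 1 FPKM filter through the parental DAC libraries alone, so its p-value is a description. NSMCE3, a subunit of the SMC5/6 complex, had 5.23 and 5.79 FPKM in parental and 3.41 and 3.10 in resistant cells with DMSO, a log2 difference of -0.61 (adjusted p = 0.00029) that was not called. Of 16 ubiquitin ligase partners, 15 were tested. DAC raised 2 of them in parental cells by limma, against 6.66% of all genes, and lowered 0, against 2.64%. At an unadjusted p under 0.05, 9 were higher and 4 lower, while voom raised 2 and lowered 1. Over the larger set of genes with at least 10 reads in total, voom raised 12.4% and called 15.6% there. LNX1, a partner of MAGEB18, went from 0.521 and 0.317 to 4.58 and 4.26 FPKM (log2 fold change 1.94) and TRIM69, also a RING ligase, from 1.13 and 1.17 to 5.49 and 5.97 (1.65). In resistant cells DAC called 0 of the 15 by limma (4 higher and 3 lower at an unadjusted p under 0.05) and 0 by voom. Limma called 0.235% of all genes there, and voom 0.556% over the larger set of genes with at least 10 reads in total. TRIM28, the partner of MAGEC2, MAGEA3 and MAGEA6 and a silencer of repeats, had 48.9 and 47.6 FPKM in DMSO-treated parental cells and 55.6 and 59.6 with DAC. In resistant cells it had 49.1 and 47.1 FPKM with DMSO and 40.4 and 42.9 with DAC. Its interaction of -0.45 (limma adjusted p = 0.0016) was not called. Of 11 tested substrates and binding targets, DAC called 0 in parental cells by limma (3 higher and 4 lower at an unadjusted p under 0.05, 1 lowered by voom) and 0 in resistant cells (2 higher and 2 lower, 0 by voom), against the same 9.31% and 0.235% of all genes. These percentages are those of limma calls and not of an unadjusted p under 0.05, so counts at that threshold show direction only.

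Of 17 genes of the silencing machinery, all 17 were tested and DAC called 0 by limma in parental and in resistant cells, against 9.31% and 0.235% of all genes. At an unadjusted p under 0.05, 7 were higher and 3 lower with DAC in parental cells and 3 higher and 6 lower in resistant cells. The percentages of all genes given here are those of calls and not of this looser threshold, so such counts show direction only. Voom called 0 in both, against 15.6% and 0.556% of the larger set of genes with at least 10 reads in total. DNMT1, the methyltransferase that DAC traps, had 21.9 and 22.2 FPKM in DMSO-treated parental cells, 26.2 and 26.7 with DAC, 23.2 and 23.1 in resistant cells with DMSO and 17.5 and 17.3 with DAC. Its DAC difference of 0.25 in parental cells (adjusted p = 0.00032) and the interaction of -0.64 (adjusted p = 3.7e-05) stayed under the fold of a call, as did the difference of -0.39 with DAC in resistant cells (adjusted p = 0.0012). Of the 11 proposed activators of type I promoters, 9 were tested, and DAC called 0 in parental cells by limma, against 9.31% of all genes. At an unadjusted p under 0.05, 3 were higher and 1 lower, and voom raised 1. Over the larger set of genes with at least 10 reads in total, voom raised 12.4%. CTCFL (BORIS), a germline paralog of CTCF, went from 2 and 0 to 15 and 26 reads with DAC in parental cells. Between resistant and parental cells with DMSO, limma lowered KIT, from 4.52 and 5.58 to 1.5 and 1.61 FPKM, and raised 0 of the 9. Of all genes 4.28% were lowered there. At an unadjusted p under 0.05, 4 of the 9 were higher and 4 lower, and voom raised 1 and lowered 2. Of the larger set of genes, voom called 13.7% there.

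Genes inside or beside the MAGE clusters were read too. Voom raised 1 and lowered 1 of 13 tested neighbours with DAC in parental cells. Over the larger set of genes with at least 10 reads in total, it raised 12.4%. By limma DAC raised 1 there and lowered 0, where 1 of 13 is near the 6.66% of all genes raised. This was GABRE, a GABA receptor subunit gene near MAGEA4, with 6 and 0 reads with DMSO and 436 and 409 with DAC. Untested at under 1 FPKM in all but 1 library, CSAG1, itself a cancer-testis gene within the MAGEA cluster, went from 0 reads to 27 and 53 with DAC. CSAG3 had 0 reads in DMSO-treated parental cells, 6 and 21 with DAC, 33 and 26 in resistant cells with DMSO and 20 and 13 with DAC. In resistant cells with DMSO the MAGEA genes beside it (MAGEA3, MAGEA12, MAGEA2, MAGEA2B and MAGEA6) had 0 reads. NSDHL and CETN2, ubiquitous genes at the cluster's edge, had 12.9 and 6.15 FPKM on average in DMSO-treated parental cells and 8.84 and 4.05 with DAC, and were not called.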

How the data were processed

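RNA-seq of 8 libraries in 4 groups was used. The authors trimmed reads with cutadapt 1.9.1, aligned them to hg38 with HISAT2 2.1.0 and counted them with HTSeq 0.13.5, versions per the submitters' processing notes. Whether counting used the strand is not given in the sources used here. The values deposited by the authors are FPKM multiplied by 1000. Repeat families had other totals and were left out. Values were divided by 1000, and reads were recovered from their steps: 87.1% of values were whole (tolerance 0.02) at GENCODE lengths, 27 members were solved by length, 2 by ratio, and 4 were at 0. Recovered reads came to 104.1% to 104.5% of the scaling totals.

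The members and lists were chosen with earlier results of these data known. Members follow the name rule, and other genes are named only from the lists. The letters CGGAAG, the read rule, voom on genes of at least 10 reads and the pseudocount of 0.1 without a filter were chosen after seeing the data. log2(FPKM + 1) of 14899 genes with at least 1 FPKM in 2 of 8 libraries was fitted with limma 3.58.1 (R 4.3.3), 4 group means, variances moderated along a trend (prior df 2.5, residual df 4). Genes were called at an unadjusted p up to 0.01 with a log2 difference of 1 or more in size, and the Benjamini-Hochberg adjustment ran over the whole table. Counts of members or listed genes at an unadjusted p under 0.05 have no share of all genes beside them, since the percentages given are those of calls. A two-sided exact permutation test of 2 against 2 cannot go below p = 0.333. Fold ratios are from pooled reads over the scaling totals with exact 95% intervals that cover counting error only. Against 0 reads, a floor of 3 reads over the group was used. Replicates differed by more than sampling noise (chi-square per gene 4.02 to 4.28). The fit was run on simulated data in which only genes expressed with DMSO were changed, so that run does not bear on genes near 0 FPKM. Shared sequence was measured as 75-base words of canonical transcripts. Alternatives were other pseudocounts, filters and scalings, a replicate block, only the libraries compared, adjusted p-values, voom and leaving out each library. Gene positions are those of GENCODE on GRCh38.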

Additional observations from a re-analysis of the deposited data

Results flagged for a closer look

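The DAC effect differed between resistant and parental cells, by the interaction in limma, for 6 type I genes. These passed the 1 FPKM filter through the parental DAC libraries alone, so the sign was fixed by the filter and the values are a description. The difference on the log2(FPKM + 1) scale was -3.98 for MAGEA4, -2.68 for MAGEC2, -1.45 for MAGEC1, -1.32 for MAGEA1, -1.23 for MAGEB1 and -1.21 for MAGEA9B, with every parental pair of libraries apart and at most 2 reads in any resistant library except for MAGEA4.

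Of 9 MAGE-named genes outside the rule, 6 had reads. The antisense RNA, named after its values were seen, is MAGEA4-AS1 (chrX:151904431-151913968, minus strand). It had 65 reads with DAC in parental cells, 52 and 13 in the 2 libraries, and 0 with DMSO. MAGEA4-AS1 overlaps the start of MAGEA4, and without strand its reads cannot be told apart from those of MAGEA4 there. A MAGE pseudogene had 4 reads with DAC in parental cells, all in 1 library.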

How the results depend on the processing

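For the 6 called type I genes, the DAC change in parental cells and the interaction had 18 or 19 alternatives that could fit them. Sign and call were kept in each, 222 values in all. These genes passed the filter through the parental DAC libraries alone, so the kept signs and calls are a description. The sizes moved. With DAC in parental cells the log2 change ran from 2.57 to 9.39 for MAGEC2, from 3.81 to 6.45 for MAGEA4 and from 1.0 to 6.52 for MAGEA9B. The type I count of 6 with DAC in parental cells, and of 6 for the interaction, became 0 and 0 with a minimum mean of 5 FPKM, which leaves MAGEB2 alone to test and none of the 6, 17 and 13 with voom on genes of at least 10 reads, and 16 and 15 with a pseudocount of 0.1 and no filter. Without the filter both were 7. The type II count was 0 in every alternative and comparison. Leaving out 1 library gave 6 to 6 type I genes for both, and 0 to 0 for the other counts of members.

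For all genes with DAC in parental cells (1387), pseudocount 0.1 gave 2097, a mean of 5 FPKM 573, voom 2216, voom on 10 reads 4402, and pseudocount 0.1 with no filter 3979. In resistant cells (35) these were 107, 6, 57, 157 and 269, and TPM gave 89. Leaving out 1 library gave 37 to 53, the highest without replicate 1 of the resistant DAC group. For resistant against parental cells (1300) they were 2263, 517, 2373, 3861 and 3321, and TPM gave 2036. For the interaction (1583), a mean of 5 FPKM gave 721, voom on 10 reads 3299, and pseudocount 0.1 with no filter 3557. The cause was not tested beyond the number of genes that each filter leaves. The median over all 25 type I genes with DAC in parental cells moved from 0.48 to 2.29 with pseudocount 0.1, 1.20 with TPM and 0.35 with quantile normalization, and that of the interaction from -0.46 to -2.18, -1.16 and -0.34. Quantile normalization shifted the median of all genes with DAC in parental cells from 0.057 to -0.0526.

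Same-numbered replicates did not deviate together (correlations -0.0218 to 0.0198), so the numbers do not pair the samples. With the replicate block, type I counts were 6, 0, 0 and 6, type II counts 0, and all-gene counts 1388, 35, 1293 and 1586. At this depth a gene with 0 reads may still hold some RNA, for which the floor of 3 reads per group is not a hard limit. Members with near-identical copies have uncertain values.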
